A study of Mus musculus with 16 samples.

Results

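The 10 genes described here are immediate early genes of the AP-1, EGR and KLF families with a pair of companions: Jun, Junb, Jund, Fos, Fosb, Egr1, Klf2, Klf6, Ier2 and Dusp1. They were chosen by symbol from a named list and not by a threshold on these values, and each matched 1 Ensembl identifier. They are 10 of 55414 identifiers counted, and all 10 were among the 18878 that were tested because they averaged 10 counts or more per library.

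RNA was counted in 16 bulk libraries of sorted mouse leukaemia cells, the populations the study took as leukaemia-propagating cells (LPC). The leukaemia carries the Kmt2a-AFF1 fusion with overexpression of the microRNA miR-128a, modelling pro-B acute lymphoblastic leukaemia (ALL) of infants, and this genotype and disease were the same in every group, with no wild-type and no untreated library. Freshly sorted cells from bone marrow (BM) or from the central nervous system (CNS) were taken as LSK (Lin- Sca1+ cKit+ IL7R+) or as LK (Lin- Sca1- cKit+, LK/CLP in the labels), which gives 4 groups of 4 libraries: LSK from BM, LSK from CNS, LK from BM and LK from CNS. The study compared the niches, BM against CNS, and the LPC types, LSK against LK. Titles number the libraries of a group 1 to 4, and the BM and CNS libraries of 1 number and 1 LPC type share the stem of their description, which gives 8 stems. What a number or a stem is, the age and strain of the mice, any transplantation, the promoter behind miR-128a, the Cre and whether animals were pooled are not given in the sources used here. P-values therefore measure the spread between these libraries, which may be partly technical.

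Immediate early genes are transcribed within minutes of a stimulus by factors already present in the cell, without new protein synthesis. Jun and Fos proteins pair through leucine zippers into AP-1, which binds DNA and is switched on by mitogen-activated protein (MAP) kinases; EGR and KLF proteins are zinc finger factors that bind GC-rich DNA, and Dusp1 encodes a phosphatase that dephosphorylates MAP kinases. In lymphocytes KLF2 is known for maintaining quiescence and the expression of homing receptors. These transcripts are also known to rise when tissue is dissociated and cells are sorted.

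Libraries held between 19163942 (BM LSK 1) and 29232623 (CNS LK 4) counts in all. The sort labels were checked against marker genes, with levels in CPM, counts-per-million scaled by TMM (trimmed mean of M-values). Kit stood at 116 to 168 CPM and Il7r at 59.5 to 103 CPM in all 16 libraries, LK included. Ly6a, which encodes Sca1, was low, but its libraries did not overlap between LPC types: it ran from 1.20 to 1.52 CPM in BM LSK against 0.466 to 0.638 in BM LK, and from 0.940 to 2.26 in CNS LSK against 0.501 to 0.903 in CNS LK. Defining B-lineage genes were near 0 despite the pro-B label: Pax5 reached at most 1.52 CPM, Ebf1 1.44, Cd79a 2.13, Vpreb1 0.408 and Igll1 0.481, whereas Rag1, which both B and T progenitors express, ran from 213 to 341. Genes of early T cells were abundant, with Bcl11b at 256 to 328 CPM, Tcf7 at 472 to 670 and Lck at 199 to 252, while Cd3e reached at most 0.679 and Trac 0.388. Markers of microglia (Tmem119 at most 0.427 CPM, P2ry12 0.459), neutrophils (S100a8 0.201) and neural cells (Gfap 0.843, Snap25 0.716) were near 0 in every library, those from the CNS included.

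The deposited counts carry no sequence, so promoters are shown from RefSeq (GRCm38.p6) to let the letters be read beside the values. Of the 10 genes, 8 had a promoter entry. The 4 below belong to the genes that differed most between library numbers and, for Klf6, were also lower in CNS in every stem. Each is the 250 bases before the RefSeq start, 5′ to 3′ on the gene's strand, and capitals mark matches to a cAMP response element (TGACGTCA), to the variants TGACATCA and TTACCTCA, or to an EGR site (GCGNGGGCG). The Jun window is chr4:95052223-95052472 on the minus strand, the Fosb window chr7:19310046-19310295 on the minus strand, the Dusp1 window chr17:26508473-26508722 on the minus strand, and the Klf6 window chr13:5861239-5861488 on the plus strand.
Jun: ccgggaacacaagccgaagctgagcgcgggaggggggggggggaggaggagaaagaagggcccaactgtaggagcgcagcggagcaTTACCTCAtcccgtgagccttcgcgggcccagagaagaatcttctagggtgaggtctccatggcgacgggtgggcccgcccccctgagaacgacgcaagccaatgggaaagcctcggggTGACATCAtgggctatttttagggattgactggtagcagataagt
Fosb: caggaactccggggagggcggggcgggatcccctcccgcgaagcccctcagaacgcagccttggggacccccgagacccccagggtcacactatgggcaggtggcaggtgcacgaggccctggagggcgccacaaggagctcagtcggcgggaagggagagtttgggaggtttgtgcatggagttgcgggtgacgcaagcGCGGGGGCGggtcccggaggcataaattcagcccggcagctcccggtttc
Dusp1: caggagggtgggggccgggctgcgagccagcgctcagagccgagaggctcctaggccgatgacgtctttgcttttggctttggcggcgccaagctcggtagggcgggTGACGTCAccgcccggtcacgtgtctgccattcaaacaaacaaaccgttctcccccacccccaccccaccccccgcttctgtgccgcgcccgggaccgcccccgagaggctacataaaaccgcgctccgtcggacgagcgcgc
Klf6: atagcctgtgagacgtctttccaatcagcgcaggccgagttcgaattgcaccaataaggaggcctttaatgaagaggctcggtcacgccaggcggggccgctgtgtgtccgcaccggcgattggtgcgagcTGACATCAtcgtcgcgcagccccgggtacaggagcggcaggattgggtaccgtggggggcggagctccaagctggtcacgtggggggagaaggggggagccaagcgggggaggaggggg

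In the Jun window TTACCTCA began 164 bases and TGACATCA 45 bases before the start, and TGACATCA also began 119 bases before the Klf6 start. TGACGTCA began 143 bases before the Dusp1 start, and the EGR site of Fosb, which overlaps a GC box (GGGCGG), began 50 bases before its start. On either strand, TGACATCA was in 2.93% of 32851 RefSeq promoter windows of the same length, TTACCTCA in 0.728%, TGACGTCA in 1.55% and the EGR site in 4.70%. The AP-1 site TGANTCA, in 6.75% of all windows, and the CArG box, in 1.47%, were in 0 of the 8 member windows. Of these 8, the Jund window (chr8:70697489-70697738, plus strand) ends before the annotated start of Jund at 70698949 without adjoining it. A GC box, in 32.7% of all windows, was in 6 of the 8. These are letter matches only and say nothing of binding.

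In GENCODE M21 (GRCm38), a build other than the GRCm39 of the submitters' processing notes, 4 of the 10 genes lie on chromosome 8: Junb (ENSMUSG00000052837, 84974484 to 84978718), Jund (ENSMUSG00000071076, 70698949 to 70700616), Klf2 (ENSMUSG00000055148, 72319033 to 72321656) and Ier2 (ENSMUSG00000053560, 84661331 to 84662852). Jun (ENSMUSG00000052684) lies at 95049034 to 95052222 on chromosome 4, Fosb (ENSMUSG00000003545) at 19302696 to 19310051 on chromosome 7, and Fos (ENSMUSG00000021250) at 85473890 to 85477273 on chromosome 12. Klf6 (ENSMUSG00000000078) lies at 5861482 to 5870394 on chromosome 13, Dusp1 (ENSMUSG00000024190) at 26505590 to 26562128 on chromosome 17 and Egr1 (ENSMUSG00000038418) at 34859823 to 34864984 on chromosome 18. Jun, Junb and Jund overlap a gene on the other strand, Junos, Prdx2 and Gm11175, and the annotated span of Dusp1 overlaps Ergic1 and 3 other genes. How strand was used in counting is not given in the sources used here, so reads of these partners cannot be told apart. Junos stood at most at 0.695 CPM in any library, Gm11175 at most at 0.129, Prdx2 between 46.2 and 71.0, above Junb, and Ergic1 between 34.8 and 46.2.

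Scaled by exon length, the genes spanned about 2 orders of magnitude, and the order of the levels split them into a steady and a variable set. Jund, the Jun protein often found in resting cells, was highest with a median of 11.1 CPM per kb of exon, followed by Ier2, a small nuclear protein gene, at 7.87, Junb at 3.73 and Klf6 at 1.63. Fosb followed at 0.832, Klf2 at 0.765, Dusp1 at 0.532, Jun at 0.217, Fos at 0.123 and Egr1 at 0.119. The last pair did not differ beyond their spread, and neither did Fosb, Klf2 and Dusp1, whose libraries overlapped widely. From the lowest to the highest library, Ier2 varied 1.32-fold (coefficient of variation 7.83%), Junb 1.51-fold (13.1%), Jund 1.91-fold (16.2%) and Klf6 2.74-fold (29.5%). Dusp1 varied 13.7-fold (84.4%), Klf2 11.3-fold (68.9%), Egr1 26.3-fold (82.4%), Fosb 28.8-fold (112%) and Jun 284-fold (159%), from 1 to 296 counts.

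The low end of the last 3 genes lay at the level of silent genes. Over 1736 olfactory and vomeronasal receptor genes the background was 0.0317 to 0.107 CPM per kb, and Jun was at or below its library's background in 2 libraries, Fos in 3 and Egr1 in 1. Within 2 times the background were 5 libraries for Jun, 5 for Fos and 10 for Egr1, and 0 for each of the other 7 genes. Fos had between 0 and 46 counts and Egr1 between 2 and 44, so differences among their low libraries were not detectable at this depth.

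**Figure D1:**
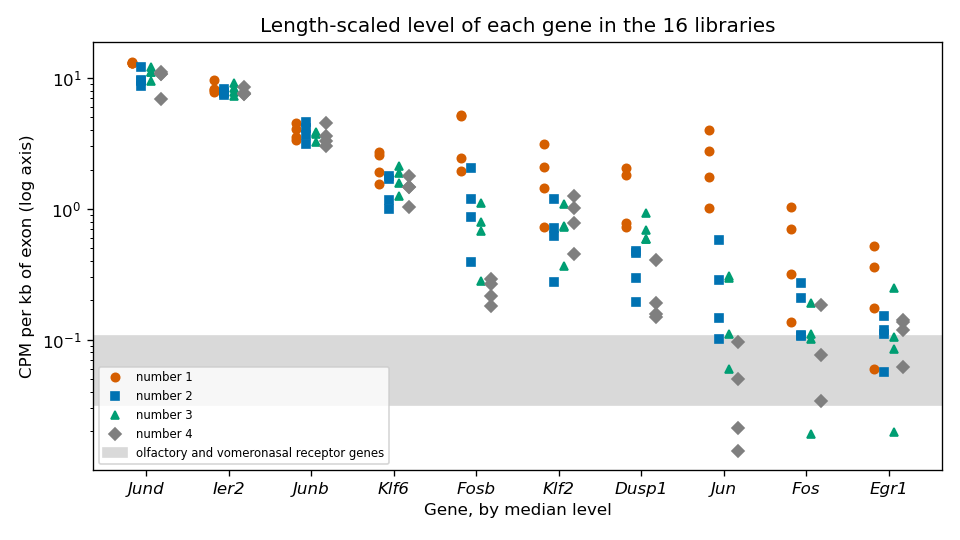
Level of each gene per kb of exon (log axis) in each of the 16 libraries, with the symbol giving the title number and the grey band the range of the receptor gene background, 0.0317 to 0.107 CPM per kb. Jund, Ier2 and Junb are tightly grouped, while Jun, Fos and Egr1 reach into the band; the 1 Fos library with 0 counts is not drawn.

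Most of the variable genes differed by the number in the title, with the libraries numbered 1 high. Jun, which encodes the main partner of Fos in AP-1, stood at 8.82 CPM in BM LSK 1, 12.8 in CNS LSK 1, 5.59 in BM LK 1 and 3.26 in CNS LK 1. In the other 12 libraries it ran from 0.0453 to 1.85 CPM with a median of 0.339, so the 4 libraries numbered 1 lay above all others, with a 13.9-fold ratio of means. The libraries numbered 4 were lowest on average, at 0.144 CPM, against 0.888 in those numbered 2 and 0.620 in those numbered 3.

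Fosb, a Fos relative whose protein also pairs with Jun, was ordered by number as well. It stood at 31.8 CPM in BM LSK 1, 32.6 in CNS LSK 1, 15.2 in BM LK 1 and 12.1 in CNS LK 1. Numbered 2, in the same order of groups, it stood at 12.9, 7.46, 2.47 and 5.46 CPM, and numbered 3 at 6.94, 4.21, 4.93 and 1.76. Numbered 4 it stood at 1.82, 1.13, 1.36 and 1.67. Within each of the 4 groups number 1 was the highest and number 4 the lowest, and the libraries numbered 1 overlapped those numbered 2 only through BM LSK 2.

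Dusp1, the MAP kinase phosphatase, stood at 6.80 CPM in BM LSK 1 and 6.03 in CNS LSK 1, and at 2.58 in BM LK 1 and 2.40 in CNS LK 1. In the other 12 libraries it ran from 0.498 to 3.09 CPM, highest in CNS LSK 3, and its mean was 2.31 in libraries numbered 3, 1.18 in those numbered 2 and 0.753 in those numbered 4. Ergic1, which overlaps it in the annotation, was also higher in libraries numbered 1 (41.3 to 46.2 CPM) and 3 (44.8 to 46.2) than in those numbered 2 (35.0 to 40.4) and 4 (34.8 to 38.6). Its part in the Dusp1 counts was not tested.

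Fos, the first described partner of Jun, stood at 2.45 CPM in BM LSK 1, 1.65 in CNS LSK 1 and 0.753 in BM LK 1, above the 12 libraries of other numbers (0 to 0.642). CNS LK 1, at 0.320, lay among them. Klf2 had a mean of 3.41 CPM in libraries numbered 1 against 1.42 in the others, and Klf6, a widely expressed KLF factor, 9.63 against 6.68, with overlap in both. Egr1, a zinc finger factor induced by growth factors, averaged 1.25 CPM in libraries numbered 1 against 0.507, but CNS LK 1 was among the lowest at 0.267.

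The steady genes showed little of this. Jund stood at 21.7 to 22.2 CPM in the libraries numbered 1 and at 11.6 to 20.2 in the other 12, which was a 1.27-fold ratio of means without overlap. Ier2 ran from 11.2 to 14.7 CPM and Junb from 7.02 to 10.6, and neither separated the numbers.

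The title number was tested as a term of 4 levels beside the 4 group means, a comparison chosen after these values were seen, with edgeR's quasi-likelihood F test and Benjamini-Hochberg adjustment over all 18878 identifiers. It was past an adjusted p of 0.05 for 6 of the 10 genes, against 3.60% of all identifiers. These were Jun (adjusted p 3.27e-06), Fosb (5.19e-06), Dusp1 (0.00182), Klf6 (0.0158), Fos (0.0302) and Klf2 (0.0307). In the order of p-values over all identifiers Jun was number 4, Fosb number 7 and Dusp1 number 87. Jund (0.114), Egr1 (0.363), Ier2 (0.818) and Junb (0.932) did not pass the same adjustment. All 4 libraries numbered 1 lay above the other 12 in 2 of the 10 genes, Jun and Jund, against 0.244% of all identifiers.

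BM and CNS libraries of 1 stem may share a source, in which case 16 libraries overstate the evidence. With the counts of each stem summed to 1 sample, edgeR's adjusted p for the title number was 0.000214 for Jun and 0.000489 for Fosb, and 2 of the 10 genes passed, against 0.429% of identifiers; Dusp1 was at 0.0720. Without the libraries numbered 1, 1 of the 9 genes still tested passed, as did 397 of 18982 identifiers. This gene was Fosb, at 0.0155, with Jun at 0.154 and Dusp1 at 0.0790. Without BM LK 1 alone 3 passed, Jun, Fosb and Dusp1, while 383 to 702 identifiers passed across the fits that each left out 1 library. The call of Klf2 was also lost without BM LSK 1 (0.189), CNS LSK 1 (0.0973), BM LSK 4 or BM LK 2, and that of Fos without CNS LSK 1 (0.0953) and without CNS LSK 3, CNS LSK 4, BM LK 2, BM LK 3 or BM LK 4 (0.0506 to 0.0630), so only Jun, Fosb and Dusp1 passed without each library in turn.

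The background and the summed markers given here overlapped between the libraries numbered 1 and the other 12 together. The receptor gene background ran from 0.0463 to 0.0892 CPM per kb in the libraries numbered 1, inside the range of the others, and summed T and NK cell markers (10 of 15 tested) ran from 1184 to 1476 CPM in them against 1326 to 1546 in the other 12. Summed myeloid markers (6 of 13 tested) ran from 2.76 to 7.68 CPM in libraries numbered 1 and from 2.55 to 8.34 in the others, and summed microglia markers (4 of 13 tested) from 12.1 to 15.5 and from 11.4 to 17.6, with S100a8 and Tmem119 at or near 0. Summed neural, glial and meningeal markers (7 of 12 tested) ran from 39.2 to 62.8 CPM in libraries numbered 1 and from 33.5 to 52.2 in the others. Some sums separated single numbers: summed endothelial markers (6 of 7 tested) ran from 68.4 to 85.3 CPM in libraries numbered 1 and from 88.9 to 106 in those numbered 4, and summed B-lineage markers (8 of 12 tested) from 273 to 338 in those numbered 2 and from 244 to 261 in those numbered 3. Most of the endothelial sum was Pecam1 (57.2 to 102 CPM) and most of the B-lineage sum Rag1 (213 to 341 CPM). The neural, glial and meningeal sum was mostly Mbp (28.5 to 52.0 CPM). These sums therefore follow single genes and do not measure the content of a cell type. Of the marker genes, Il7r (adjusted p 0.0144), Cd2 (0.0207) and Flt3 (0.0386) passed the number test by edgeR. Il7r averaged 73.1 CPM in libraries numbered 1 and 98.0 in those numbered 4, and the part of these differences in the results was not tested. In bulk libraries fewer cells with a transcript and less transcript per cell cannot be told apart.

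Among 27 tested genes of 34 on a list of other immediate early genes, 9 were past the adjusted p of 0.05 for the number, against the same 3.60% of identifiers, but they did not share a direction. Ppp1r15a, a stress-induced phosphatase subunit, stood at 8.49 to 13.6 CPM in libraries numbered 1 and at 3.72 to 8.13 in the others (edgeR adjusted p 0.00257). Zfp36, which encodes an mRNA decay factor, stood at 9.21 to 9.62 CPM against 4.99 to 7.38 (0.00281). In both, the libraries numbered 1 lay above all others, whereas Trib1, a pseudokinase gene, had its lowest mean in them (5.28 CPM against 11.4, 7.76 and 10.2 in those numbered 2, 3 and 4; 0.0158). Id2 and Nfkbia likewise had their lowest mean in libraries numbered 1, and Ier5 and Rhob their highest. Per1, a clock gene, was highest in libraries numbered 3, at 55.6 to 59.9 CPM (0.0469), as was the mean of Socs3.

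Of 11 tested other KLF genes 2 passed the number test, Klf4 (adjusted p 0.0120 by edgeR) and Klf3 (0.0152), both with their highest mean in libraries numbered 1. On a list of KLF2 targets in lymphocytes Cdkn1a, a cell cycle inhibitor gene, passed and averaged 2.33 CPM in libraries numbered 1 and 0.590 in those numbered 4 (0.00949). Of the DUSP and RAS-MAPK feedback genes 2 of 11 passed (Dusp10 and Spred1), of the heat shock genes 1 of 9 (Bag3), of EGR, NR4A and corepressor genes 0 of 5, of MAPK pathway kinases 0 of 23 and of SRF, ternary complex and CREB factors 0 of 14. At an unadjusted p under 0.05 by edgeR the last 3 lists held 0, 6 and 2 genes, and the 10 members 7, against 17.2% of identifiers.

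**Figure D2:**
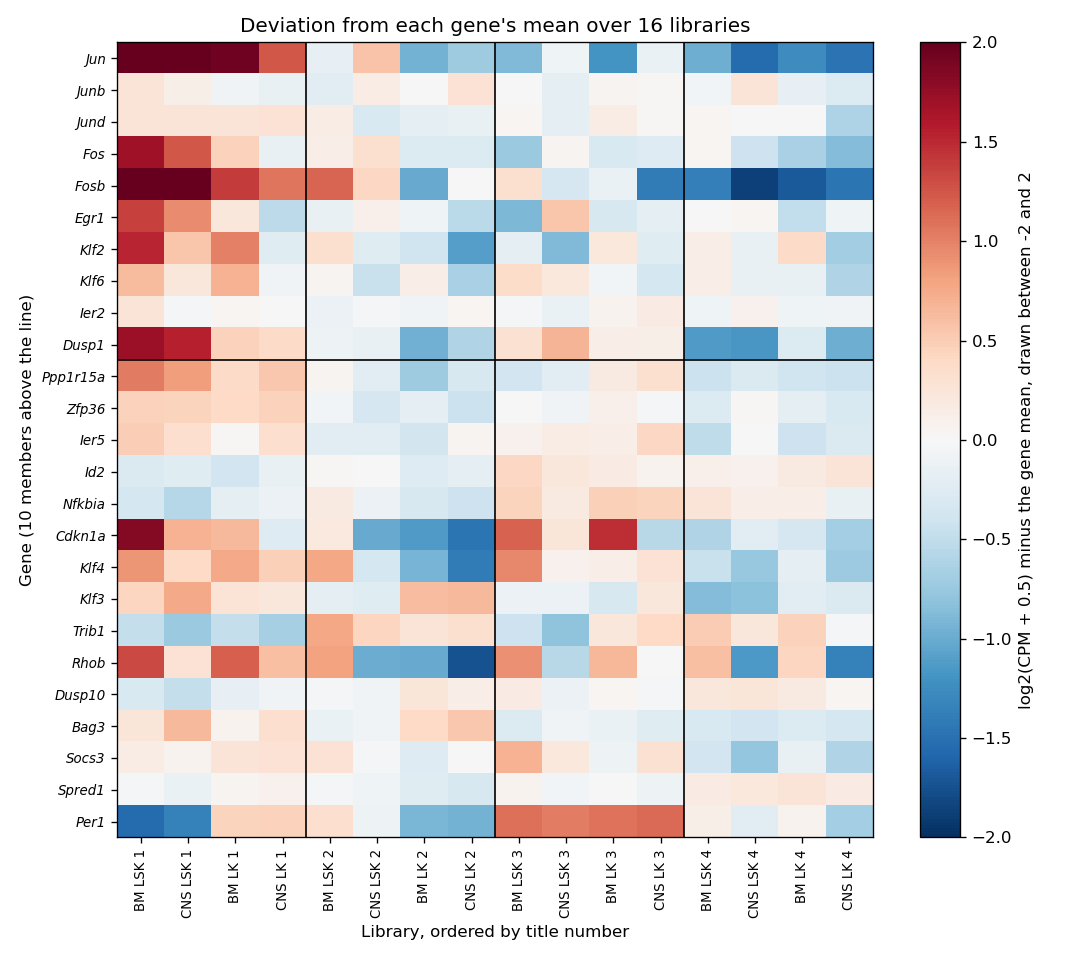
Deviation of log2(CPM + 0.5) from each gene's mean over the 16 libraries, drawn between −2 and 2, with libraries ordered by title number and the 10 genes above the line. Below the line are genes of the related lists past an adjusted p of 0.05 for the number; Jun and Fosb are red in the 4 libraries numbered 1, and Trib1 is blue there.

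The genes whose pattern was most like that of the group were found by Pearson's r, over the 16 libraries, to the mean standardised log2 CPM of the 6 members with a mean of at least 50 counts (Jun, Junb, Jund, Fosb, Klf6 and Ier2), among 11634 genes. By level these were Ppp1r15a (0.838), Znrf3 (0.835), Ppfia1 (0.818), Zfp36 (0.806) and Csnk2a2 (0.801). After subtraction of the group means they included Dio2 (0.892), Ppp1r15a (0.883), Zdhhc14 (0.863) and Ier5 (0.862). These values share the libraries numbered 1: over the other 12 libraries r was 0.504 for Ppp1r15a and 0.437 for Zfp36 by level, against 0.837 for Znrf3, and it was 0.843 for Dio2 after subtraction. Among the members themselves r was 0.877 between Jun and Fosb, 0.849 between Jun and Fos and 0.826 between Jun and Dusp1, and 0.639, 0.715 and 0.595 over the 12 libraries. Ier2 went with Junb at 0.640 and 0.649, and with Jun at 0.280 and −0.13. These are descriptions over libraries that share stems.

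Between niches, Klf2 and Klf6 had less RNA in CNS than in BM in 8 of 8 stems, Dusp1 in 6 of 8 and the rest in fewer; 0 of the 10 were higher in CNS in 8 of 8, against 1.49% of identifiers. Klf2 stood at 5.74, 2.19, 1.38 and 1.87 CPM in BM LSK 1 to 4 and at 2.69, 1.32, 0.672 and 1.45 in CNS LSK 1 to 4. In LK it stood at 3.87, 1.14, 2.01 and 2.31 CPM in BM and at 1.33, 0.508, 1.33 and 0.836 in CNS. The ranges of BM and CNS overlapped in both LPC types, and 0 of the 10 genes had BM above CNS without overlap, against 1.59% of identifiers in LSK and 0.81% in LK.

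Klf6 stood at 11.4, 7.41, 9.38 and 7.90 CPM in BM LSK 1 to 4 and at 8.42, 5.10, 8.33 and 6.43 in CNS LSK 1 to 4. In LK it stood at 11.9, 7.87, 6.90 and 6.42 CPM in BM and at 6.78, 4.36, 5.50 and 4.51 in CNS. Here too the ranges overlapped, since the spread between numbers was as wide as the niche difference. A value lower in CNS in 8 of 8 stems was found in 1.45% of all identifiers.

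Over both LPC types the log2 change from BM to CNS was −1.04 ± 0.333 (SE) for Klf2 and −0.50 ± 0.148 for Klf6. In the fit of group means, without pairing by stem, neither passed the adjustment in edgeR (adjusted p 0.371 and 0.354, unadjusted p 0.00552 and 0.00298). In that fit 0 of the 10 genes passed, as did 0% of all identifiers. At an unadjusted p under 0.05 these 2 of 10 were lower, against 2.60% of identifiers, and 0 were higher, against 6.55%. DESeq2 likewise called 0 of the 10, and 40 of 18878 identifiers. Without the filter on low counts Klf2 and Klf6 passed in edgeR (adjusted p 0.0140 for each), as did 85 of 53366 identifiers. That fit gives smaller p-values at a like F. In the title number test by edgeR, Jund had p 0.000681 at F 5.69 without the filter and 0.00756 at F 5.49 with it. The calls without the filter are therefore not taken as support. With a replicate block on the stem, Klf2 (adjusted p 0.00582) and Klf6 (0.00494) also passed, as did 126 identifiers. The block was kept as an alternative, since libraries of a stem correlated over 0.1 in 6 of 8 stems at a mean of 10 counts. At a mean of 50 counts they did so in 8 of 8. The niche call for these genes therefore depends on whether stems are taken as pairs.

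Within LSK the change was −0.84 ± 0.461 for Klf2 (−0.24 without BM LSK 1 and −1.26 without CNS LSK 1) and −0.35 ± 0.208 for Klf6, and within LK −1.24 ± 0.479 and −0.66 ± 0.211 (edgeR adjusted p at least 0.856 in all 4). In LK the 2 genes had an unadjusted p under 0.05 by edgeR (0.0184 and 0.00556), against 1.13% of identifiers lower in CNS, and 0 were higher, against 2.86%. In LSK 0 of the 10 had one, against 1.92% lower and 3.82% higher. The difference of the niche effects was 0.39 ± 0.663 for Klf2 and 0.31 ± 0.296 for Klf6 (edgeR adjusted p 1.00 for both), so no difference between LPC types was detectable. The background of receptor genes ran higher in CNS, at 0.0730 to 0.107 CPM per kb in CNS LSK against 0.0317 to 0.0821 in BM LSK, and its part in these values was not tested. Marker lists of other cells also had higher medians in CNS over both LPC types, though 0 of their genes passed the adjusted p, with a median log2 change of 0.66 for B-lineage markers (3 of 8 tested higher at an unadjusted p under 0.05 by edgeR), 0.58 for myeloid (3 of 6) and 0.59 for neural, glial and meningeal markers (2 of 7), and 0 lower in each. Their part was not tested either.

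Jun, Fos, Fosb, Egr1 and Dusp1 moved by less than their standard errors between niches. The log2 change over both LPC types was 0.059 ± 0.895 for Jun, −0.47 ± 0.635 for Fos, −0.23 ± 0.623 for Fosb, −0.064 ± 0.430 for Egr1 and −0.071 ± 0.472 for Dusp1. For the steady genes the errors were small, with −0.16 ± 0.111 for Jund, 0.062 ± 0.0996 for Junb and 0.0069 ± 0.0702 for Ier2. The approximate 95% interval of Ier2 ran from −0.13 to 0.14 and that of Jun from −1.70 to 1.81, so a several-fold niche difference in Jun would not have been detectable. The median over the 10 genes was −0.12, against 0.00 over all tested.

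**Figure D3:**
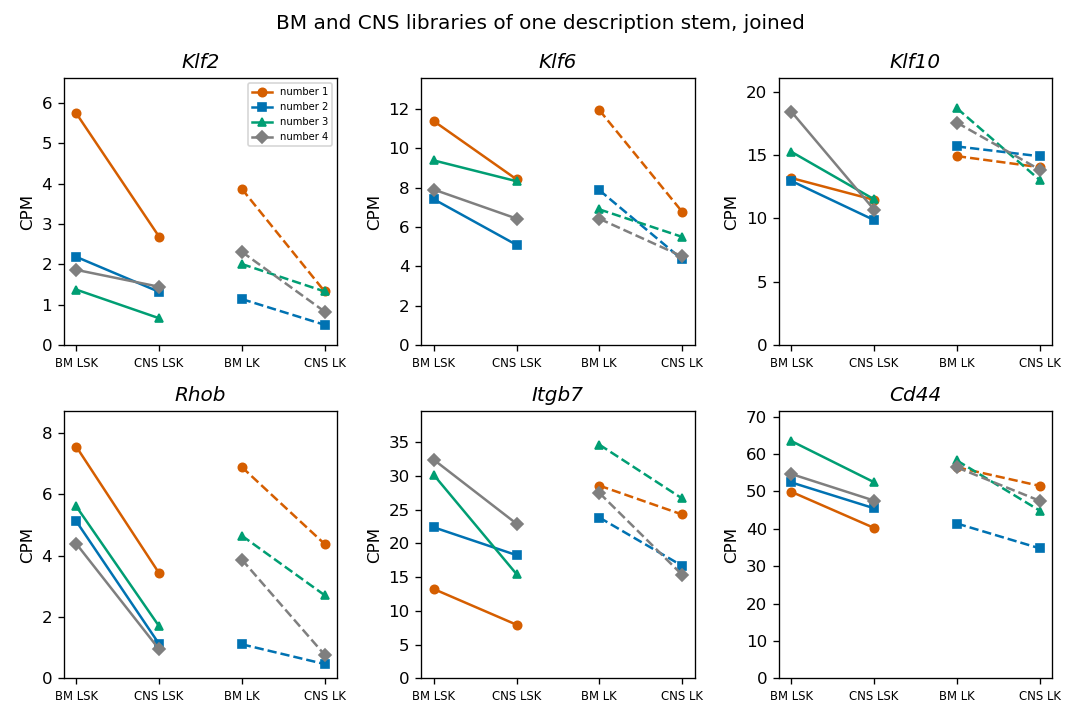
CPM of Klf2, Klf6 and 4 related genes in the BM and CNS library of each description stem, joined by a line (solid for LSK, dashed for LK), with colour and symbol giving the title number. In these 6 genes all 8 lines fall from BM to CNS, while the ranges of Klf2 and Klf6 overlap between BM and CNS.

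No gene of the related lists passed the adjustment in a niche contrast by edgeR, so the genes with the smallest p are given as values. Klf10, a KLF gene induced by transforming growth factor beta, stood at 15.0 ± 2.53 CPM in BM LSK, 10.9 ± 0.771 in CNS LSK, 16.7 ± 1.72 in BM LK and 13.9 ± 0.768 in CNS LK (SD, n = 4), with a log2 change over both of −0.36 ± 0.0791 and an edgeR adjusted p of 0.222. Rhob, an immediate early gene for a small GTPase, went from 5.66 ± 1.35 to 1.80 ± 1.13 CPM in LSK and from 4.13 ± 2.38 to 2.08 ± 1.83 in LK, a log2 change of −1.34 ± 0.387 (edgeR adjusted p 0.342). Both were lower in CNS in 8 of 8 stems. On the list of KLF2 targets, Itgb7, an integrin subunit of gut homing, changed by −0.54 ± 0.190 and Cd44, an adhesion receptor, by −0.25 ± 0.0861, each lower in 8 of 8 stems (edgeR adjusted p 0.407 and 0.393). At an unadjusted p under 0.05 by edgeR 3 of 5 tested genes of that list were lower in CNS and 0 higher, and 2 of 11 other KLF genes were lower and 0 higher, against 2.60% of identifiers lower and 6.55% higher. In the other direction, Btg2, an antiproliferative gene, changed by 0.31 ± 0.107, Elk3, a ternary complex factor, by 0.28 ± 0.0873 and Nab2, an EGR corepressor, by 0.38 ± 0.164 (edgeR adjusted p 0.400, 0.367 and 0.499).

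Between LPC types, 9 of the 10 genes were higher on average in LSK than in LK, and 0 of the 10 passed the adjustment in edgeR, against 0.238% of identifiers. Fos stood at 2.45, 0.494, 0.0445 and 0.434 CPM in BM LSK 1 to 4 against 0.753, 0.250, 0.239 and 0.0798 in BM LK 1 to 4. In CNS it stood at 1.65, 0.642, 0.448 and 0.181 CPM in LSK against 0.320, 0.254, 0.258 and 0 in LK. Matched by number and niche, Fos was higher in LSK in 7 of 8, the exception being BM 3, and the groups overlapped in both niches.

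Egr1 stood at 2.34, 0.494, 0.0889 and 0.608 CPM in BM LSK 1 to 4 against 0.788, 0.537, 0.383 and 0.279 in BM LK 1 to 4. In CNS it stood at 1.61, 0.682, 1.12 and 0.634 CPM in LSK against 0.267, 0.254, 0.473 and 0.535 in LK. In CNS the LSK libraries all lay above the LK libraries, which was so for 1 of the 10 genes and for 2.37% of identifiers. In BM it was so for 0 of the 10 and for 1.49% of identifiers. Egr1 lay close to the receptor gene background in CNS. Divided by the background of its library, it stood at 4.02, 1.43, 2.77 and 1.94 in CNS LSK 1 to 4. In CNS LK 1 to 4 this ratio was 1.01, 1.46, 1.67 and 1.27, so the LPC types overlapped by this measure.

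The log2 difference between LSK and LK over both niches was 1.58 ± 0.633 for Fos and 1.06 ± 0.435 for Egr1 (edgeR adjusted p 0.328 and 0.335; unadjusted 0.0220 and 0.0242), 1.23 ± 0.885 for Jun, 1.14 ± 0.627 for Fosb and 0.84 ± 0.473 for Dusp1. It was 0.43 ± 0.332 for Klf2, 0.27 ± 0.148 for Klf6, 0.081 ± 0.0996 for Junb, 0.054 ± 0.111 for Jund and −0.022 ± 0.0702 for Ier2. The median of the 10 was 0.64, against −0.011 over all tested. Several marker lists also had medians above 0, with 0.62 for stem and progenitor markers (8 of 9 tested), 0.52 for endothelial (6 of 7), 0.52 for neural, glial and meningeal (7 of 12) and 0.43 for B-lineage markers (8 of 12), whereas T and NK cell markers stood at 0.0015 (10 of 15). Of these genes 1, Ly6a, passed the adjusted p by edgeR, and their part in the members' values was not tested. At an unadjusted p under 0.05 by edgeR 2 of the 10 were higher in LSK, against 7.53% of identifiers, and 0 lower, against 4.59%. Jun, Fos and Fosb, 3 of the 10, were higher in LSK in at least 7 of 8 matches of number and niche, against 7.11% of identifiers. DESeq2 also called 0 of the 10, and 222 of 18878 identifiers.

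The Egr1 and Dusp1 values were smaller without the libraries numbered 1. The log2 difference of Egr1 was then 0.46 (edgeR adjusted p 0.828) and that of Dusp1 0.35 (0.891), against 1.06 and 0.84 with them. That of Jun was 1.11 and of Fosb 0.94 without them (adjusted p 0.730 and 0.706), and Fos then fell under the minimum of 10 counts on average. Single libraries also decided these sizes: without BM LSK 1 the difference was 0.13 for Jun, 0.13 for Klf2, 0.39 for Dusp1 and 0.52 for Egr1, and without CNS LSK 1 it was 0.45 for Fosb and 1.19 for Fos. Without BM LK 1 it was 2.62 for Jun and 1.68 for Fosb. The receptor gene background ran from 0.0317 to 0.107 CPM per kb in LSK and from 0.0341 to 0.0937 in LK. Within BM it ran from 0.0317 to 0.0821 in LSK and from 0.0341 to 0.0488 in LK. Within CNS it ran from 0.0730 to 0.107 in LSK and from 0.0387 to 0.0937 in LK, and its part was not tested. Within BM the differences were 1.28 for Fos and 0.76 for Egr1, and within CNS 1.87 and 1.36, with edgeR adjusted p of at least 0.751 throughout. In CNS, Egr1 alone of the 10 had an unadjusted p under 0.05 by edgeR and was higher in LSK (0.0404), against 4.25% of identifiers, and 0 were lower, against 2.33%.

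**Figure D4:**
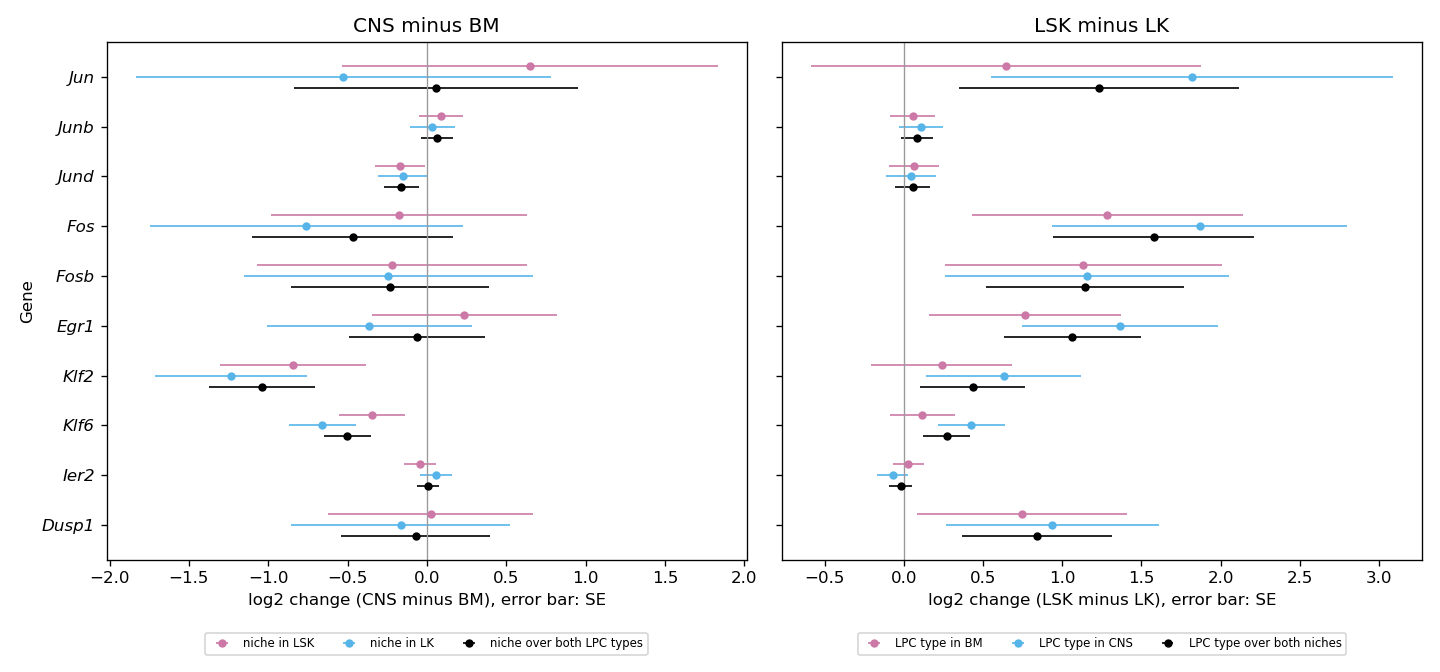
Log2 change of each gene with its SE, CNS minus BM on the left and LSK minus LK on the right, within each stratum and over both. Klf2 and Klf6 lie left of 0 between niches, at −1.04 and −0.50 over both, and Fos and Egr1 right of 0 between LPC types, at 1.58 and 1.06; Junb, Jund and Ier2 stay near 0.

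No gene of the related lists passed the adjustment between LPC types by edgeR, either over both niches or within one. Btg2 was at 11.0 ± 1.15 CPM in BM LSK and 13.7 ± 2.88 in CNS LSK, and at 13.9 ± 1.48 in BM LK and 17.1 ± 3.28 in CNS LK (SD, n = 4), a log2 difference of −0.33 ± 0.107 with 0 of 8 matches higher in LSK (edgeR adjusted p 0.220). Araf, a kinase upstream of MAP kinases, was also higher in LSK in 0 of 8 matches, at −0.20 ± 0.0658 (0.225), and Klf10 in 1 of 8, at −0.26 ± 0.0790 (0.190). Tnfaip3, an inhibitor of NF-kappaB signalling, was at 0.20 ± 0.0724 (0.272) and Hspa8, a constitutive heat shock protein, at 0.17 ± 0.0679 (0.323). Of 27 tested other immediate early genes 1 was higher and 1 lower in LSK at an unadjusted p under 0.05 by edgeR, against 7.53% and 4.59% of all identifiers.

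**Figure D5:**
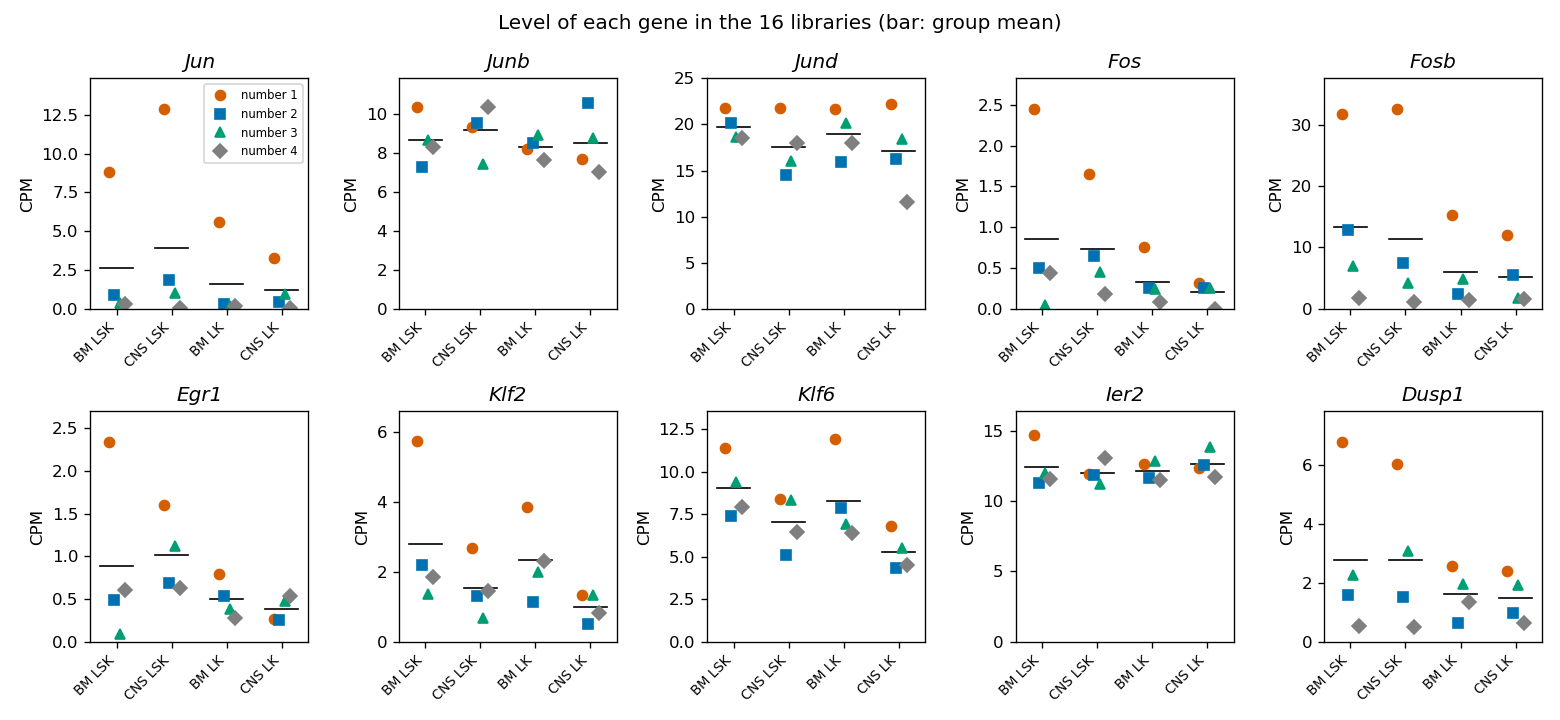
CPM of each of the 10 genes in the 16 libraries by group, with the symbol giving the title number and the bar the group mean (n = 4). In Jun and Fosb the orange points of number 1 are the highest in each group, at 3.26 to 12.8 and 12.1 to 32.6 CPM, whereas Junb and Ier2 show no such order.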

How the data were processed

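RNA of 16 sorted samples was made into libraries with a pico-input, stranded kit for total RNA, per the labels. The deposited table held whole-number counts per Ensembl identifier. Its name calls them normalised, but totals differed between libraries and size factors by median of ratios spanned 0.804 to 1.30, and they were therefore treated as raw counts. The submitters' processing notes name GRCm39 and DESeq2, with no role; aligner, counter, annotation, strand use and molecular identifiers are not given in the sources used here, so counts are not taken as independent molecules. Identifiers with no symbol (41.8% of counts) stayed in the library sizes of 19.2 to 29.2 M (mega) counts, 52081 of 55414 matched a symbol, and 0 columns were unused.

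Identifiers averaging 10 counts or more (18878) were fitted in edgeR 4.0.16 (R 4.3.3) with TMM scaling as 4 group means. The 7 contrasts were tested by the two-sided quasi-likelihood test with Benjamini-Hochberg adjustment at 0.05. The SE is the log2 change divided by the root of F. The edgeR fits were also tested on simulated counts. The members and lists were chosen with earlier results of these data known. From a related list, genes past 0.05 in a contrast were named, and otherwise up to 2 with the smallest p and a mean of at least 50 counts; the text gives a part of these, and some genes are not reported here. Alternatives were other filters, scaling and DESeq2 1.42.0, identifiers with a symbol, the 2 groups compared alone, blocks, summed stems, and leaving out each library. The title number test and leaving out the libraries of each number were added after the data were seen.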

Additional observations from a re-analysis of the deposited data

Results flagged for a closer look

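In 3 of 40 groups of 4 libraries, 1 library lay far from the other 3 by Dixon's test, and all 3 were Jun in a library numbered 1. Jun stood at 8.82 CPM in BM LSK 1, against 0.304 to 0.918 in the other BM LSK libraries. It stood at 12.8 CPM in CNS LSK 1, against 0.0453 to 1.85, and at 5.59 CPM in BM LK 1, against 0.160 to 0.322. Chance alone would mark about 1 in 20 groups.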

How the results depend on the processing

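The stem or number was not taken to pair libraries: among genes averaging 10 counts or more, the deviations of the BM and CNS library of a stem correlated over 0.1 in 6 of 8 stems (lowest −0.022), and LSK and LK libraries of a number in 4 of 8; at 50 counts it was 8 of 8 and 6 of 8. With a replicate block on the stem, 2 of the 10 genes passed over both LPC types between niches, Klf2 (adjusted p 0.00582) and Klf6 (0.00494), and 126 identifiers against 0; 2 also passed with no filter, where 85 identifiers did (DESeq2: 40). Within LSK the block gave 26 and no filter 10 identifiers, and within LK 12 and 14. Under a replicate block on the title number, 1 gene passed between LPC types, Fosb (0.96, adjusted p 0.0383), and 162 identifiers against 45. That count was 290 with no filter, 222 with DESeq2, 0 with summed stems, 15 to 138 without single libraries, and 0, 84, 7 and 26 without the libraries numbered 1, 2, 3 and 4. In BM it was 48 with no filter, 39 with DESeq2 and 8 without those numbered 4, and in CNS 38, 6 and 11 (8 without those numbered 2), against 0.

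For the title number, 6 genes passed, and 2 with summed stems, 3 of 6 at a mean of at least 50 counts (fewer genes tested), 1 without the libraries numbered 1, and 3 to 6 without single libraries, 3 being without BM LK 1. Identifiers passing were 679, and 81 with summed stems, 1307 with no filter, 1245 with DESeq2, 1203 in LK libraries only, 397, 385 and 380 without those numbered 1, 3 and 4, and 383 to 702 without single libraries. The call of Fos was lost in 9 alternatives, of Klf2 in 8, Klf6 in 4, Dusp1 in 2 and Jun in 1; Fosb passed in all 28 alternatives, and Jund did in 3. Fos had no adjusted p in DESeq2.

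Direction between niches reversed for Jun without libraries numbered 2 (−0.019) or 3 (−0.11) and without single libraries (−0.94 to 1.45), Junb without those numbered 2 (−0.049; −0.00045 to 0.11), Fosb without single libraries (−0.93 to 0.30), Egr1 with the stem block (0.12) or without those numbered 1 (0.54; −0.25 to 0.48), Ier2 with no filter (−0.049) or without those numbered 2 (−0.028) or 4 (−0.027; −0.017 to 0.052) and Dusp1 without those numbered 1 (0.032) or 4 (0.020; −0.42 to 0.38). Between LPC types it reversed for Junb without those numbered 4 (−0.0016), Jund with no filter (−0.0064) or without those numbered 4 (−0.021; −0.020 to 0.13) and Ier2 at 50 counts (0.0040) or without those numbered 3 (0.038; −0.067 to 0.0053). The cause was not tested. Klf2 and Klf6 kept their direction between niches in every alternative run, from −1.25 to −0.74 and −0.57 to −0.39 without single libraries.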
